A study of Homo sapiens with 5 samples.

Results

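TEAD4 binding was examined at the 6 genes that encode the platelet-derived growth factors (PDGF) and their receptors: the ligand genes PDGFA, PDGFB, PDGFC and PDGFD, and the receptor genes PDGFRA and PDGFRB. The genes were chosen by name, with earlier results of these data known. A TEAD4 peak was counted at a gene by the place of its summit. That summit had to lie in the gene body or within 50 kb of any of the gene's transcription start sites (TSSs). By this rule 32 of the 21113 peaks of the list were at the 6 genes. The peaks came from chromatin immunoprecipitation with sequencing (ChIP-seq), in which DNA bound by a protein is pulled down with an antibody, here one against TEAD4, and sequenced. The cells were LX-2, a human hepatic stellate cell (HSC) line, treated with DMSO, a solvent that served as vehicle. There were 5 samples, namely 3 TEAD4 ChIP replicates and 2 inputs (chromatin sequenced without immunoprecipitation), with 1 input shared by replicates 1 and 2 and the other for replicate 3. All samples were of this 1 line and this 1 treatment, so no condition was compared. A peak list holds no expression values, and the identity of the cells was taken from the labels. The peak list combined ChIP replicates 1 and 3 and gave no value per replicate, so no spread between replicates and no test could be given, and the sequencing depth behind the peaks is unknown.

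PDGFs are dimers that bring 2 receptor chains together on the cell surface. The receptors are tyrosine kinases that phosphorylate each other once paired and then recruit adaptors and enzymes through phosphorylated tyrosines. PDGFRα binds dimers of the A, B and C chains, and PDGFRβ binds mainly dimers of the B and D chains. PDGF is a strong mitogen and chemoattractant of HSCs, the cells that turn into collagen-producing myofibroblasts in the injured liver, and PDGFRβ is a widely used marker of these cells. TEAD4 is a DNA-binding protein of the TEAD family, the main DNA-bound partners of the co-activators YAP1 and TAZ. The TEAD proteins recognise the M-CAT sequence, read here as ACATTCC on either strand, with CATTCC as its core.

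Of the 32 peaks, 9 held ACATTCC within 100 bp of the summit, and these are shown with the TEAD motif in capitals (ACATTCC, or GGAATGT where it lies on the minus strand). Capitals also mark TGANTCA, the site of the AP-1 factors, where a peak with the TEAD motif held it as well. The peak of PDGFRA, the member peak nearest to a TSS, is added as the only one at that gene and has no capitals because it held none of these motifs. Each sequence is from the plus strand of hg38, 5′ to 3′, and holds the summit and the motifs, and the peaks of a gene are numbered in the direction of its transcription.
PDGFA peak 1, chr7:543040-543120: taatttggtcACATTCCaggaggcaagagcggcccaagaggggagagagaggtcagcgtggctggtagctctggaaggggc
PDGFB peak 1, chr22:39292158-39292238: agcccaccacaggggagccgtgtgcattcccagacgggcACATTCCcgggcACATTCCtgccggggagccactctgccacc
PDGFB peak 3, chr22:39207301-39207390: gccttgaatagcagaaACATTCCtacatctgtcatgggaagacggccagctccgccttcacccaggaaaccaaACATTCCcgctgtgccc
PDGFC peak 4, chr4:156976276-156976356: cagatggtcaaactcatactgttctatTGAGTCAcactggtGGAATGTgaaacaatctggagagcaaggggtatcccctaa
PDGFC peak 6, chr4:156968538-156968618: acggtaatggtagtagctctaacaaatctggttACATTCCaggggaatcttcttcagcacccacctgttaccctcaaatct
PDGFC peak 17, chr4:156751626-156751706: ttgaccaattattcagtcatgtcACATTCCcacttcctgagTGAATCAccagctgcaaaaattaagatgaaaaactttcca
PDGFD peak 1, chr11:104134852-104134982: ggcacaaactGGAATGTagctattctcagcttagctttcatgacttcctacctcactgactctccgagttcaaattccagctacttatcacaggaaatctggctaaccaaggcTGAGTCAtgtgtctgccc
PDGFRA peak 1, chr4:54228284-54228364: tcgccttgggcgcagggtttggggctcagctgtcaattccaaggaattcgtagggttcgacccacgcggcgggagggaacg
PDGFRB peak 2, chr5:150142019-150142099: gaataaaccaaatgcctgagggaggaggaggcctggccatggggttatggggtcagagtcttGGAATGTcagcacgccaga
PDGFRB peak 3, chr5:150139527-150139607: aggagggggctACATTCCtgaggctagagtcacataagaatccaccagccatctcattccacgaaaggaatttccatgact

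All 6 genes had at least 1 TEAD4 peak, while 56.2% of the 20033 protein-coding genes had one by the same rule. The peaks were unevenly spread over the family. PDGFC had 19, which is 59.4% of the 32, PDGFRB had 4, PDGFB and PDGFD had 3 each, PDGFA had 2 and PDGFRA had 1. Over all protein-coding genes the median was 1 peak, the 90th percentile was 4 and the 99th was 10, so PDGFC alone of the 6 stood above the 90th percentile. A long gene has more sequence in which a peak can be counted, and the length searched ran from 104 kb at PDGFB to 307 kb at PDGFD, against a median of 112 kb over protein-coding genes. Per 100 kb searched, PDGFC had 6.37 peaks, PDGFB 2.88, PDGFRB 2.84, PDGFA 1.87, PDGFD 0.977 and PDGFRA 0.676. The median over protein-coding genes was 0.666 per 100 kb and the 90th percentile 2.74, so PDGFC, PDGFB and PDGFRB were above the 90th percentile and PDGFRA was close to the median.

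**Figure D1:**
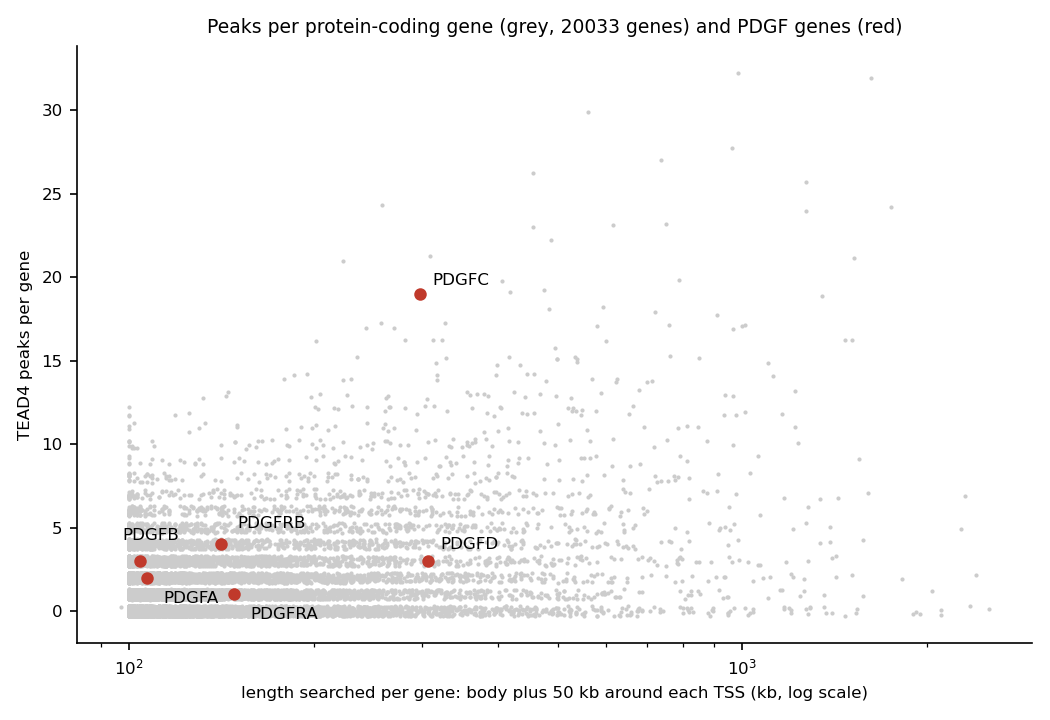
Number of TEAD4 peaks per gene (y axis, points shifted slightly up or down so that they do not hide each other) against the length searched per gene in kb (x axis, log scale) for 20033 protein-coding genes in grey and the 6 PDGF genes in red. PDGFC stands apart with 19 peaks in 298 kb, while PDGFD had 3 in a length of 307 kb.

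Of the 32 summits, 17 lay in introns of the PDGF gene, 9 upstream of the gene and 6 downstream of it, and 0 lay in an exon. Over all protein-coding genes, 18 of the 32 (56.2%) were in a gene body outside exons, beside 48.1% of the list, and 5.65% of the list were in exons. Within 2.5 kb of a TSS there were 5 summits (15.6%), beside 18.9% of the list near a protein-coding TSS. The whole list also holds peaks far from genes. Of the 16031 peaks at any protein-coding gene by the same rule, 63.4% were in gene bodies outside exons, 7.44% in exons and 24.8% near a TSS. For gene bodies the members thus lay above the whole list but below these peaks. For each of these 3 places both shares lay inside the Wilson 95% interval of the members (39.3 to 71.8% in bodies, 0.0 to 10.7% in exons and 6.86 to 31.8% near a TSS), which covers counting error only. The 5 summits near a TSS were at PDGFC, PDGFRA and PDGFRB, so 3 of the 6 genes had a peak there, beside 16.6% of protein-coding genes. Only the summit of PDGFRA was within 2.5 kb of the TSS of the gene's canonical transcript (the one that Ensembl takes as representative), and the other 4 were near TSSs of further transcripts. For 29 of the 32 summits, the nearest TSS of any protein-coding gene belonged to the PDGF gene itself. The rule favours this, since it takes peaks near the gene's own TSSs, and all 19 peaks of PDGFC were among the 29. The same share was not computed for other genes.

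The signal value of a peak is the enrichment measure that the authors' peak caller gave it, and its unit is not given in the sources used here. The 32 peaks had a median signal value of 77.5 and ranged from 40.8 to 294.7. The whole list had a median of 68.1 and ranged from 6.57 to 1074.4. Of the 32 peaks, 18 (56.2%) were above the median of the list and 5 (15.6%) were in its top 10%, which began at 191.9. These 5 were 2 at PDGFC, 2 at PDGFRB and 1 at PDGFA. All 32 had the highest −log10 q-value of the list, 4.76, as did 94.5% of all peaks. Of the 32, 29 (90.6%) had the highest score for irreproducible discovery rate (IDR, a measure of how well peaks repeat between replicates), 1000, against 76.1% of the list.

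PDGFA encodes the A chain, which forms PDGF-AA or pairs with the B chain. The gene lies at chr7:497258-520296 on the minus strand. It had 2 peaks, both upstream and 4658 bp apart, and none in its body or near its 6 annotated TSSs. Peak 1 (chr7:542974-543154) lay 22784 bp upstream of the nearest TSS and had a signal value of 105.2, higher than 71.8% of the list. Peak 2 (chr7:538230-538593) lay 18126 bp upstream and had a signal value of 249.6, higher than 94.4% of the list. The weaker of these peaks held the full motif ACATTCC, 27 bp from its summit, and the stronger one held only the core CATTCC, 31 bp from its summit. Of the protein-coding genes with a peak, 87.8% had a strongest peak weaker than that of PDGFA.

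PDGFB encodes the B chain, whose dimer PDGF-BB binds both receptors. The gene lies at chr22:39223359-39244982 on the minus strand. Its 3 peaks were all outside the gene body. Peak 1 (chr22:39292096-39292292) was the strongest, with a signal value of 87.4, and lay 47216 bp upstream. Its summit was nearer to the TSS of RPL3, a ribosomal protein gene, at 21507 bp. Peaks 2 (chr22:39214468-39214911) and 3 (chr22:39207119-39207562) lay downstream, 26219 and 33568 bp from the nearest PDGFB TSS, with signal values of 45.9 and 50.3, both below the median of the list. The strongest peak of PDGFB was thus of middling strength, above the strongest peak of 44.2% of protein-coding genes with a peak.

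The peaks of PDGFB held repeated TEAD motifs. Peak 1 had ACATTCC 2 times on the same strand with centres 12 bp apart, 2 and 14 bp from the summit, and 4 copies of the core within 100 bp. Of the whole list, 35 peaks (0.166%) had 4 or more copies of the core, and of the 32 member peaks only this 1 (3.12%). The limit of 4 is the number found in this peak itself. Peak 3 also held ACATTCC 2 times on 1 strand, with centres 57 bp apart. Peaks with 2 or more such motifs made up 2 of the 32 (6.25%), both at PDGFB, and 382 of the whole list (1.81%). Peak 2 held the AP-1 motif, 15 bp from its summit, and no TEAD core.

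PDGFC encodes the C chain, which carries a CUB domain that proteases must cut off before the growth factor domain can bind a receptor. The gene lies at chr4:156760454-156971799 on the minus strand and covers 211 kb. Of its 19 peaks, 10 lay in introns, 5 upstream and 4 downstream. Only 19 protein-coding genes had more peaks than PDGFC, and 118 had more per 100 kb. The summits fell into 2 stretches with a gap of 143 kb between them. The 5′ stretch held 9 peaks over 70.9 kb, from 41252 bp upstream of the canonical TSS into intron 1. The 3′ stretch held 10 peaks over 64.4 kb, from intron 3 to beyond the end of the gene. The middle of the gene, between peak 9 in intron 1 and peak 10 in intron 3, held no peak.

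In the 5′ stretch of PDGFC the signal values had a median of 78.4 and ran from 48.8 to 294.7. Peak 4 (chr4:156976145-156976481), 4517 bp upstream of the nearest TSS, had the highest signal value of all 32 member peaks, 294.7, above 96.3% of the list. It held ACATTCC on the minus strand 4 bp from the summit and an AP-1 motif 10 bp from it on the other side. Both motifs thus lay almost under the summit, with centres 14 bp apart. Around it were peak 3 (chr4:156977399-156977842), 5822 bp upstream with a signal value of 78.4, and peak 5 (chr4:156974253-156974696), 2676 bp upstream with 65.1. Neither of these neighbours held the TEAD core or the AP-1 motif. Farther upstream, peak 1 (chr4:157012917-157013122) at 41252 bp had a signal value of 111.9 and peak 2 (chr4:156999079-156999522) at 27502 bp had 86.3. In intron 1, peaks 6 to 9 had signal values of 48.8, 83.3, 49.2 and 50.5, so that 3 of the 4 were below the median of the list. Peak 6 (chr4:156968356-156968799), 3221 bp downstream of the canonical TSS, had ACATTCC 4 bp from its summit although its signal value was 48.8.

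In the 3′ stretch of PDGFC the median signal value was 69.8, with a range from 45.2 to 287.2. Peak 13 (chr4:156779813-156780193), in intron 3, was the strongest there at 287.2, above 96.0% of the list. It held an AP-1 motif 54 bp from its summit and no TEAD core, so the strongest peak of each stretch of PDGFC differed in its motifs. In intron 3, peaks 10, 11 and 12 had signal values of 90.3, 62.5 and 62.9. Peak 14 in intron 4 had 109.2 and peak 15 in intron 5 had 127.2. None of these 5 peaks held the TEAD core or the AP-1 motif. The peaks downstream of the gene, 16 to 19, had signal values of 58.7, 45.2, 55.1 and 76.6. Among them, peak 17 (chr4:156751444-156751887) held both ACATTCC and the AP-1 motif, with centres 18 bp apart, and had the lowest signal value of the 19.

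PDGFD encodes the D chain, the other ligand with a CUB domain, whose dimer binds PDGFRβ. The gene lies at chr11:103907189-104164379 on the minus strand and is the longest of the 6, at 257 kb. Its 3 peaks were all in introns. Peak 1 (chr11:104134832-104135069), in intron 1 and 29205 bp from the nearest TSS, was the strongest, with a signal value of 135.8. Peak 2 (chr11:104000736-104001179), also in intron 1, had 40.8, the lowest of all 32 peaks, and peak 3 (chr11:103963609-103964052), in intron 3, had 72.8. All 3 held the AP-1 motif, at 26, 55 and 20 bp from the summit. Peak 1 also held ACATTCC, 77 bp from its summit and 103 bp from the AP-1 motif. Peaks 2 and 3 were slightly nearer to the TSS of DDI1, a gene that lies inside PDGFD, at 35682 and 72809 bp, than to any TSS of PDGFD.

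PDGFRA encodes PDGFRα. The gene lies at chr4:54229280-54298245 on the plus strand. Its only peak (chr4:54228102-54228545) was the nearest of the 32 to a TSS, 956 bp upstream, and had a signal value of 43.5, higher than 21.1% of the list. Only 9.23% of protein-coding genes with a peak had a weaker strongest peak. Within 100 bp of its summit there was no TEAD core, AP-1, RUNX or E-box motif, and 62.7% of the bases were G or C. The annotation also has a protein-coding record without a gene symbol that spans this summit, and that record had 17 peaks in all.

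PDGFRB encodes PDGFRβ. The gene lies at chr5:150113839-150155872 on the minus strand. Its 4 peaks lay together in intron 1 over 4513 bp, from 12402 to 16915 bp downstream of the canonical TSS. The first and second, peak 1 (chr5:150143293-150143594) and peak 2 (chr5:150141907-150142221), had signal values of 236.4 and 250.7, above 93.7% and 94.4% of the list. Peak 3 (chr5:150139345-150139788) had 53.5 and peak 4 (chr5:150138708-150139151) had 80.5. The group thus held a strong pair followed, within the same intron, by a weaker pair. All 4 had the same nearest TSS, an internal one 18408 bp downstream of the canonical TSS, which peaks 3 and 4 preceded by 2130 and 1493 bp. Peak 2 held ACATTCC 25 bp from its summit. Peak 1 held the core CATTCC 3 bp and an AP-1 motif 43 bp from its summit, on opposite sides of it, peak 3 held ACATTCC 26 bp and a further core 17 bp from its summit, and peak 4 held none of these.

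The receptors differed from each other in this list, with 1 peak of signal value 43.5 at the promoter of PDGFRA and 4 intronic peaks with a median of 158.5 at PDGFRB. All 4 peaks of PDGFRB were also within reach of CSF1R, the gene of the receptor for colony-stimulating factor 1, and of CDX1, a homeobox gene, and 2 were within reach of SLC6A7, a transporter gene. The nearest TSS of each was nevertheless that of PDGFRB. A peak list does not tell which of these genes a bound site acts on.

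**Figure D2:**
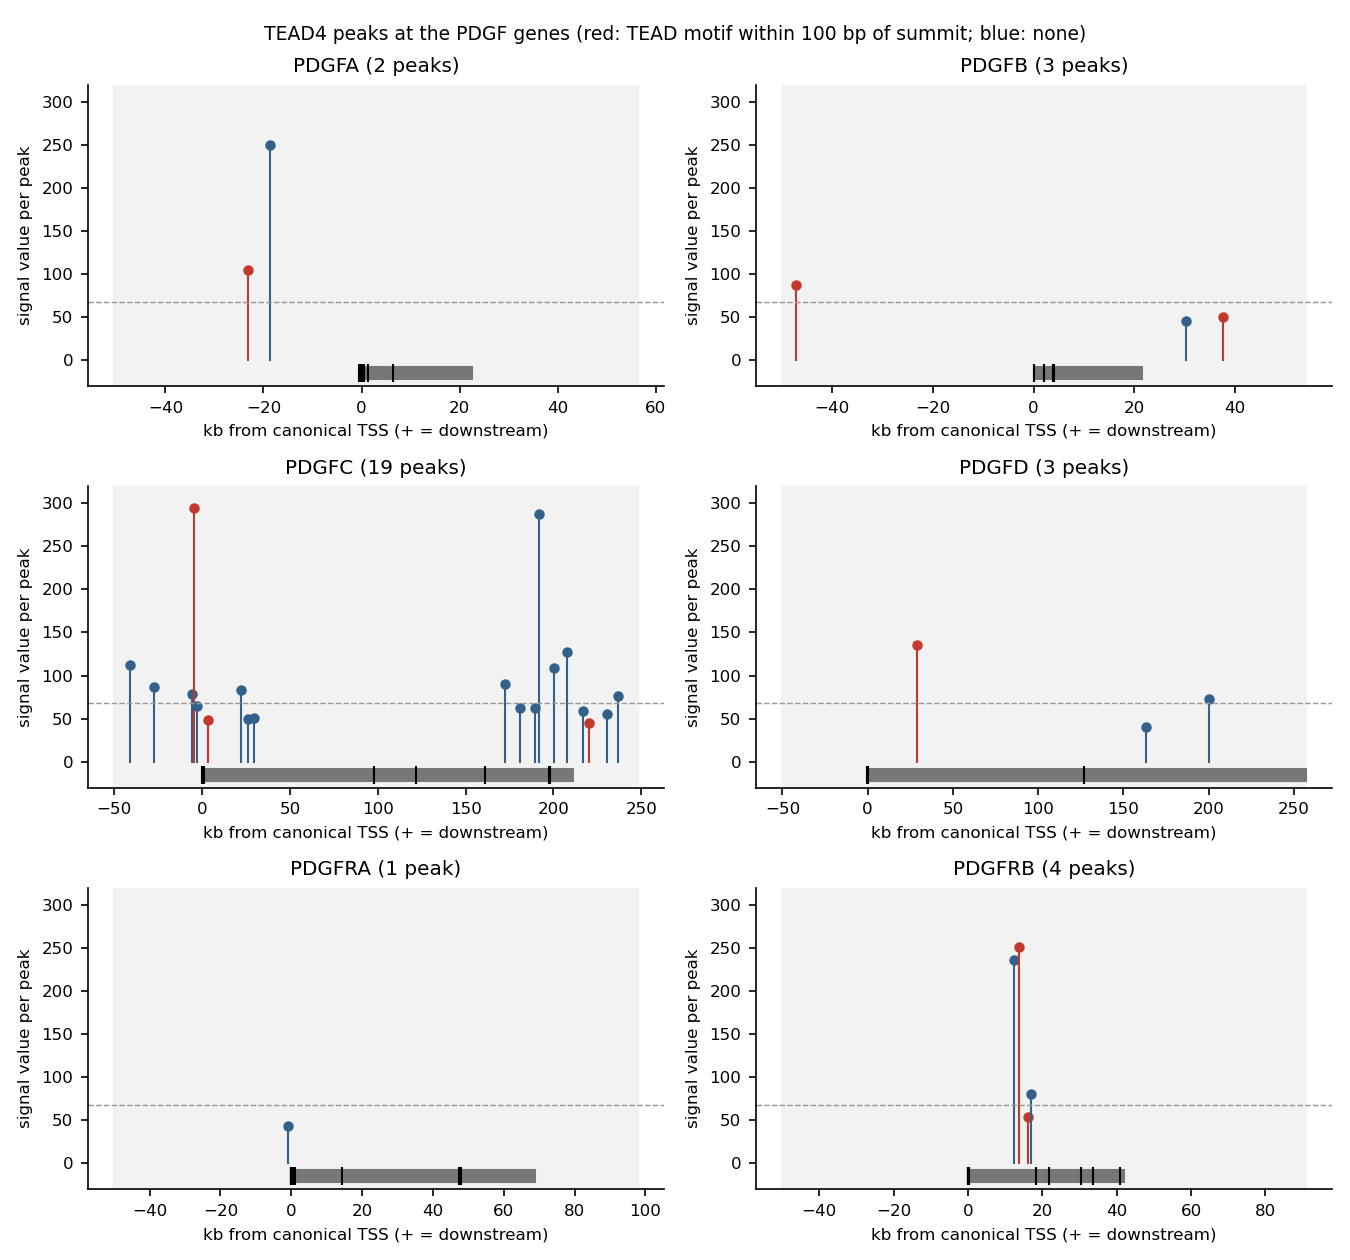
TEAD4 peaks at each gene, with the distance of the summit from the canonical TSS in kb on the x axis (positive is downstream in the direction of transcription) and the signal value per peak on the y axis. The grey bar is the gene body with its annotated TSSs as black ticks, light grey is the stretch searched, the dashed line is the median of the list (68.1), and red and blue mark peaks with and without the TEAD motif. The 4 peaks of PDGFRB sit together in the body, the 2 of PDGFA lie upstream, and the 19 of PDGFC fall into 2 stretches.

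The number of peaks depended on the limit of 50 kb at some of the genes. The farthest peaks counted were peak 1 of PDGFB, at 47216 bp, and peak 1 of PDGFC, at 41252 bp, apart from those inside gene bodies. The nearest peaks that were not counted were at 51782 bp for PDGFA, with a signal value of 79.0, at 59919 bp for PDGFRA, with 35.0, and at 63977 bp for PDGFB, with 47.4. For PDGFRB the nearest was at 70363 bp with a signal value of 56.8, for PDGFC at 87343 bp with 170.8, and for PDGFD at 384718 bp with 70.2. Peaks of PDGFA and PDGFRA thus lay not far past the limit, whereas PDGFD had a long stretch without further peaks on either side.

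Motifs on either strand were counted up to 100 bp to each side of a summit, a window of 201 bases. The TEAD motif ACATTCC was in 9 of the 32 peaks, or 28.1% (Wilson 95% interval 15.6 to 45.4%), beside 23.0% of all peaks. The core CATTCC, which every ACATTCC contains, was in 12 (37.5%, interval 22.9 to 54.7%), beside 46.8% of all peaks. The AP-1 motif TGANTCA was in 10 (31.2%, interval 18.0 to 48.6%), beside 33.7% of all peaks. For each of these, the share of the whole list lay inside the interval of the members, which covers counting error only. The E-box CAGATG was in 7 of the 32 peaks (21.9%, interval 11.0 to 38.8%), beside 16.7% of all peaks, and the RUNX motif TGTGGTT was in 2 (6.25%), beside 9.53%. The letters of the TEAD motif read backwards, CCTTACA, served as a control of equal composition and were in 2 of the 32 (6.25%, interval 1.73 to 20.1%), both at PDGFC, beside 2.0% of all peaks.

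The motifs were also counted at PDGFC apart from the other genes. At the 5 genes other than PDGFC, 6 of 13 peaks held ACATTCC (46.2%, interval 23.2 to 70.9%) and 8 held the core (61.5%, interval 35.5 to 82.3%). At PDGFC, 3 of 19 held ACATTCC (15.8%, interval 5.52 to 37.6%) and 4 held the core (21.1%, interval 8.51 to 43.3%). The share of the whole list with the core, 46.8%, lay above the interval of PDGFC and inside that of the other 5 genes. Its share with ACATTCC, 23.0%, lay inside the interval of PDGFC and just below that of the other 5 genes. The intervals of PDGFC and the other 5 genes overlap for both motifs, the 19 peaks are neighbours at 1 gene, and neither difference was tested. The base composition around the summits also differed, with a median of 37.8% G or C at PDGFC and 60.2% at the other 5 genes, against 44.8% over the list, and its part in the motif counts was not tested. Neither the core nor the AP-1 motif was found in 12 of the 19 peaks of PDGFC (63.2%), in 2 of the other 13 (15.4%) and in 32.9% of all peaks. The 2 others were the peak of PDGFRA and peak 4 of PDGFRB. Of the 5 member peaks in the top 10% of the list by signal value, 0 lacked both the core and the AP-1 motif. Of all peaks in that top 10%, 21.0% lacked both. The 5 peaks are too few to tell these shares apart, and the difference was not tested.

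Where the TEAD motif was present, it lay close to the summit. The motif nearest to the summit was at a median of 21 bp over the 9 member peaks, and in 8 of them it was within 30 bp, the exception being peak 1 of PDGFD. Over the 4849 peaks of the list with the motif, the median was 16 bp and 3708 had it within 30 bp. Peaks with both ACATTCC and the AP-1 motif numbered 3 of 32 (9.38%), 2 at PDGFC and 1 at PDGFD, beside 5.98% of the list.

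**Figure D3:**
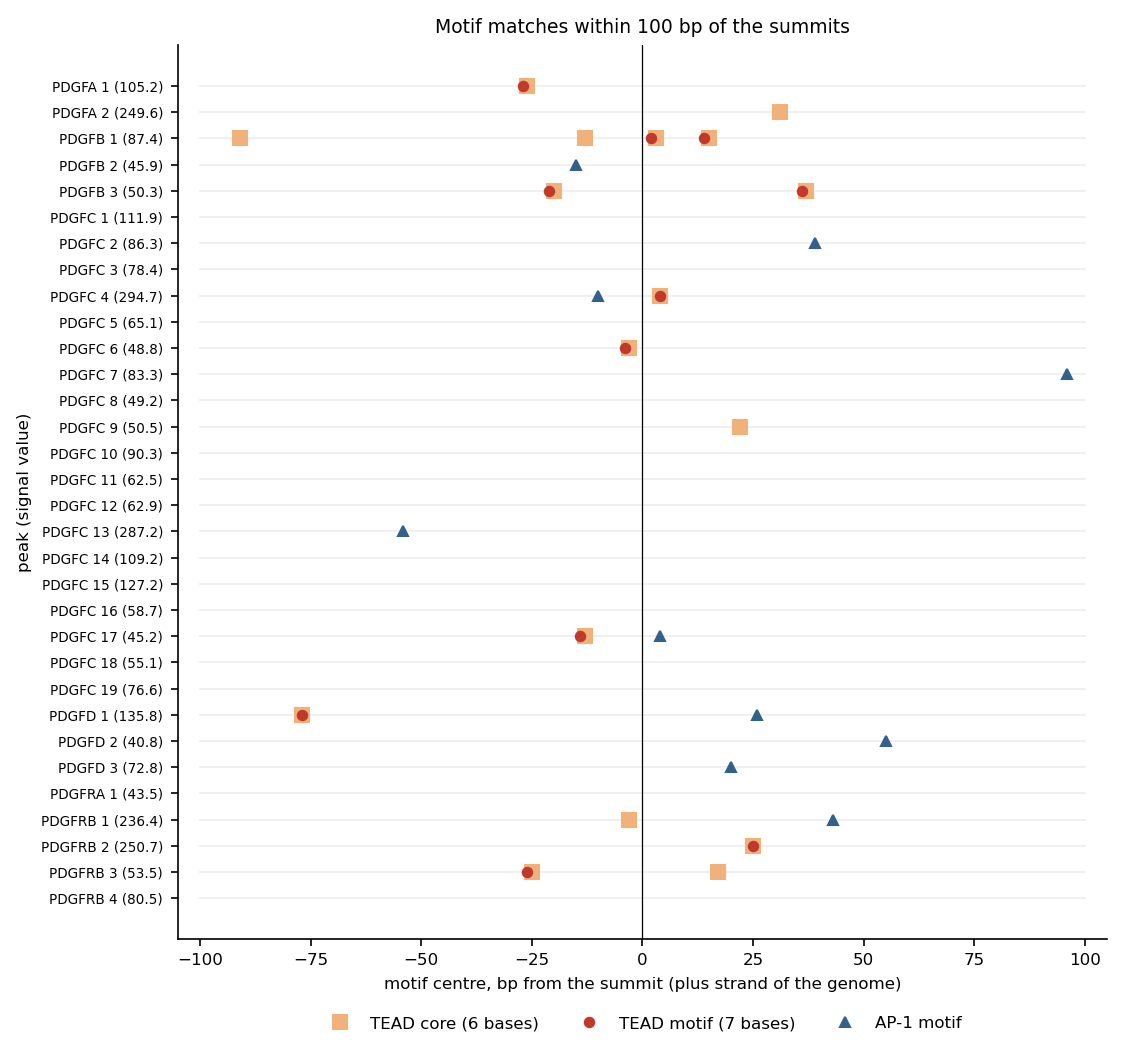
Centre of each motif in bp from the summit on the plus strand of the genome (x axis) for the 32 peaks (y axis, 1 row per peak with its signal value), with the TEAD core as squares, the full TEAD motif as circles and the AP-1 motif as triangles. In 8 of the 9 peaks with the TEAD motif a circle lies within 30 bp of the summit, peak 1 of PDGFB has 4 squares, and 12 of the 19 rows of PDGFC are empty.

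Partners and regulators of the PDGF system and relatives of its ligands and receptors were counted by the same rule in 5 lists. Of the 51 genes, 38 (74.5%) had a peak, beside 56.2% of protein-coding genes, with a median of 2.0 peaks per gene. The length searched differed between genes, and its part in this share was not tested. The lists were chosen with earlier results of these data known. Their shares, here and below, are thus a description and not independent of the data. The 6 PDGF genes had a median of 3.0 peaks.

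Among the proteases and extracellular partners of PDGF, 8 of 9 genes had a peak and the median was 5.0 per gene. PLAU (urokinase) and PLAT (tissue plasminogen activator), proteases that activate the D and C chains, had 6 peaks with a highest signal value of 190.9 and 5 with 169.6. SPARC, a matrix protein that binds PDGF, had 7 peaks, the strongest at 440.6. THBS1 (thrombospondin 1) had 5, with the highest signal value of this list at 476.5, and NRP1, a co-receptor, had 7 with 367.6. Of these 9 genes, 6 had a summit no farther than 2.5 kb from a TSS, against 3 of the 6 PDGF genes and 16.6% of protein-coding genes. In the other lists this held for 1 of 7 relatives of the receptors and 1 of 5 relatives of the ligands. It held for 7 of 22 adaptors and enzymes and 3 of 8 negative regulators. ST14 (matriptase) had no peak, the nearest being 56284 bp from a TSS.

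Among the relatives of the receptors, 5 of 7 genes had a peak. CSF1R had 6, of which 4 were those of PDGFRB, including its strongest at 250.7. FLT1, a VEGF receptor, had 5 with a highest signal value of 105.5, and PDGFRL, a receptor-like gene without a kinase, had 3 with 106.9. KDR and FLT4, the other VEGF receptors, had none, with the nearest peak 136946 and 117408 bp from a TSS. KIT, the stem cell factor receptor and a neighbour of PDGFRA on chromosome 4, had 1 peak with a signal value of 94.3, more than the 43.5 of PDGFRA. Among the relatives of the ligands, 3 of 5 had a peak. VEGFB had 4, the strongest at 274.6, VEGFC had 3 with 119.1 and PGF had 1 with 55.4. VEGFA and VEGFD had none, with the nearest 73159 and 125928 bp from a TSS.

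Of the 22 adaptors and enzymes that act at the activated receptors, 16 had a peak and the median was 1.0 per gene. FYN, a kinase of the SRC family, had 6 peaks with a highest signal value of 133.2, and NCK1, an adaptor to the actin cytoskeleton, had 5 with 164.1. PIK3CB, a catalytic subunit of PI3-kinase, had 5, with the highest signal value among these 22 genes at 574.6. The 6 without a peak were SOS1, GAB1, YES1, RASA1, STAT5B and GRB10. Of the 8 negative regulators, 6 had a peak. PTPN1, a phosphatase that dephosphorylates receptor tyrosine kinases, had 12 peaks, or 9.61 per 100 kb, and its strongest, at 721.7, was above every peak of the PDGF genes. PTPN2, its close relative, had 7 peaks with a highest signal value of 268.7, and SOCS3, an inhibitor of cytokine signalling, had 6 with 227.5. SOCS1 and ACP1 had none. Apart from the 4 peaks that PDGFRB and CSF1R share, no peak of the 5 lists was one of the 32.

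**Figure D4:**
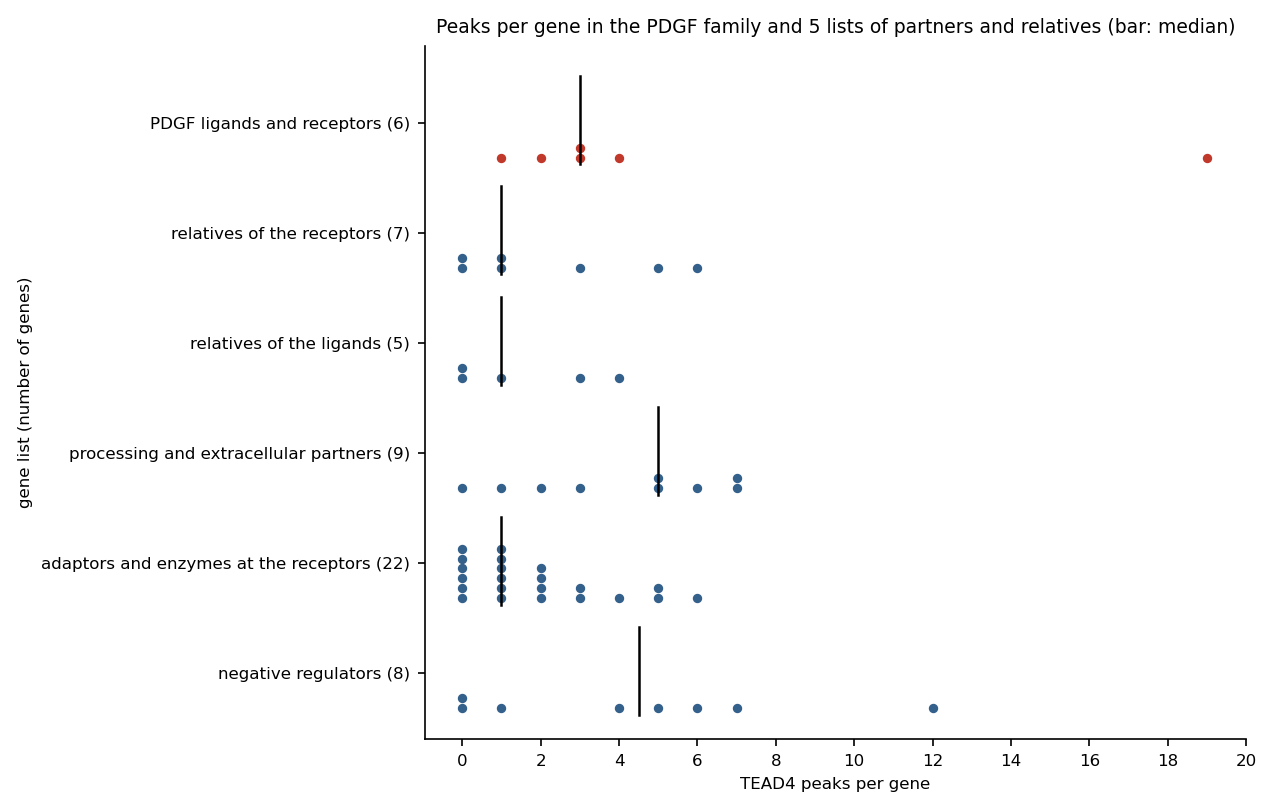
Number of TEAD4 peaks per gene (x axis) for the 6 PDGF genes in red and the 51 genes of 5 lists of partners, regulators and relatives in blue (y axis, number of genes in parentheses), 1 point per gene, with a black bar at the median of each list. PDGFC with 19 peaks and PTPN1 with 12 stand apart, and the medians run from 1.0 to 5.0.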

How the data were processed

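TEAD4 ChIP-seq was made from 3 replicates of LX-2 cells with 2 inputs. For mapping to hg38 the authors used Chromap, and the ENCODE IDR pipeline served to compare replicates. By IDR only replicates 1 and 3 agreed well enough, so the authors left out replicate 2 and made 1 peak list for the other 2. The peak caller is not given in the sources used here. The deposited list has 10 columns without a header and none per sample, and their meaning was read from its layout and values: the score is the scaled IDR computed by the authors, each peak's signal value and −log10 q-value came from the authors' pipeline, and the other numbers used are the positions of the peak and its summit.

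Genes and TSSs (the 5′ ends of all annotated transcripts) came from GENCODE release 44, and 0 of the 21113 peaks ran past a chromosome end of hg38. Peaks were assigned by their summit to gene bodies and to 50 kb around each TSS, and motifs on either strand were searched up to 100 bp from the summit. Shares have Wilson 95% intervals, which cover counting error only. Depth per sample is unknown. Named were all 6 members with every peak, neighbours with a nearer TSS, and, of each list, the 3 genes with the most peaks, the gene with the strongest peak and those without a peak. PLAT, KIT and the other genes in reach of the peaks of PDGFRB and PDGFRA were named after their values were seen. The members and lists were chosen with earlier results of these data known. Alternatives changed the distance, the TSSs, the peaks used, what places a peak, the motif and its window. The code was tested on simulated data. Software was numpy 2.4.6, scipy 1.17.1, pandas 2.3.3 and matplotlib 3.10.9 under Python 3.11.15.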

Additional observations from a re-analysis of the deposited data

How the results depend on the processing

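The list combines 2 replicates and is of 1 cell line, 1 treatment and 1 antibody, so no count or signal value has an error between cultures, none of the shares was tested, and a distance rule does not show which gene a site acts on. No paired analysis was possible because replicates have no values of their own here, so leaving out 1 replicate was not run.

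The counts depended mainly on the distance allowed. Within 2.5 kb of a TSS, 3 of the 6 genes had a peak, with 5 peaks of which 2 held the TEAD motif, and 18 of the 51 genes of the lists and 16.6% of protein-coding genes had one. In gene bodies alone the values were 3 genes, 17 peaks, 4 with the motif, 24 genes of the lists and 25%. With 10 kb around each TSS or the body there were 21 peaks at 4 of the 6 genes (PDGFA and PDGFB had 0), 5 with the motif, and 34% of protein-coding genes. With peaks above the median signal value alone there were 18 peaks at 5 of the 6 genes (PDGFRA had 0), 5 with the motif, and 38.8%. The share of protein-coding genes was 72% with 100 kb, 55.2% with 50 kb of a TSS and no gene body, 53.4% with 1 TSS per gene and 48.7% with peaks of the highest IDR score. PDGFC had the most peaks of the 6 genes or as many as PDGFRB under each of these, from 2 within 2.5 kb to 20 with 100 kb. PDGFRA had 4 peaks with 100 kb, and PDGFA had 5 and PDGFB 6. Of 123 alternative values for 12 results, 86 stayed within 1.5 times the count or within the interval or spread of the main value. All 10 for the median signal value were among them, but that median still moved. It was 53.5 within 2.5 kb of a TSS, below the 68.1 of the whole list, and 107.2 with peaks above the median signal value alone.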

Other observations

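The width of a peak went with its signal value in this list. Of all peaks, 13039 (61.8%) were exactly 444 bp wide, with a median signal value of 51.0, and the 8074 of other widths had a median of 132.8. Among the members, 20 of 32 (62.5%) were 444 bp wide and had a median of 56.9 and a highest value of 86.3, and the 12 of other widths ran from 87.4 to 294.7. In the whole list the quartiles were 39.8 and 65.4 at 444 bp and 101.9 and 196.0 at other widths, while the extremes overlapped, from 6.6 to 629.7 and from 7.3 to 1074.4. Over the whole list the TEAD motif was in 19.2% of the peaks of 444 bp and in 29.1% of the others, and among the members in 4 of 20 and 5 of 12.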
